A study of Mus musculus with 6 samples.

Results

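The level of 9 genes of the muscle cytoskeleton was followed from myoblast to myotube: the intermediate filament genes *Des* (desmin), *Vim* (vimentin), *Nes* (nestin), *Synm* (synemin) and *Sync* (syncoilin), the linker gene *Plec* (plectin), the filamin genes *Flna* and *Flnc*, and *Cryab* (the chaperone alpha-B crystallin). They were picked out by symbol, with earlier results of these data known, and all 9 were among the 54525 gene rows of the deposited counts. RNA-seq had been performed on C2C12, an immortal line of mouse myoblasts that stop dividing and fuse to form myotubes when serum is withdrawn. The 3 D0 libraries came from myoblasts and the 3 D5 libraries from cultures differentiated for 5 days in low-serum medium with horse serum. Both groups were wild type and received no other treatment, and all cultures belonged to a single cell line. The labels name them as separate samples of cultured cells but not how the cultures were kept apart, so the p-values measure the spread between these samples, which may be technical.

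Intermediate filaments are rope-like polymers of coiled-coil proteins that carry mechanical load in the cell. Mesenchymal cells build them mainly from vimentin, and myoblasts also hold nestin and desmin. Mature muscle builds them mainly from desmin, which ties neighbouring sarcomeres together at the Z-disc and to the cell membrane. Plectin and syncoilin anchor these filaments, filamins crosslink actin and join it to membrane receptors, and alpha-B crystallin protects desmin and other filament proteins from aggregation.

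The D0 libraries held from 36555048 to 40895840 counts on genes and the D5 libraries from 25449759 to 25811300. Levels are given as CPM (counts per 1000000 counts, scaled with edgeR's TMM factors), and as TPM (transcripts per 1000000 transcripts, from exonic length) wherever genes are compared with each other. Of the 16290 genes that passed edgeR's filter on low counts, 42.2% were higher and 40.8% were lower at D5 in edgeR's quasi-likelihood test at an adjusted p under 0.05, and 19.3% were higher and 16.0% lower by at least 2-fold. With 3 libraries per stage the smallest two-sided p of an exact permutation test is 0.1, and only the fit across all genes was used. The labelled stages were checked by marker genes: all 3 myoblast markers and all 8 proliferation markers were lower at D5 and all 8 myotube markers were higher. Scaling to the ERCC spike-ins (synthetic RNAs added to each sample) in place of TMM lowered the median log2 fold change of all genes from 0.002 to -0.58. The share of calls that were lower then rose from 49.2% to 67.4%. The spike-ins took 1.20%, 0.720% and 2.09% of the counts of the D5 libraries, so that scaling widened the spread between replicates.

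All 9 cytoskeletal genes passed the filter and all 9 were called. At D5, 6 were higher (*Synm*, *Cryab*, *Sync*, *Des*, *Flnc* and *Plec*) and 3 were lower (*Flna*, *Vim* and *Nes*), where scaling to the spike-ins left only *Synm* called higher and turned *Plec* and *Flnc* negative without a call. By at least 2-fold, *Synm* and *Cryab* were higher and *Vim* and *Flna* lower. In all 6 of the first group every D5 library lay above every D0 library, as in 42.2% of all genes tested, and in the other 3 every D5 library lay below, as in 41.1%. The genes were thus called about as often as others in these libraries, in which most genes were called. Their median log2 fold change was 0.30 against 0.002 over all genes tested.

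**Figure D1:**
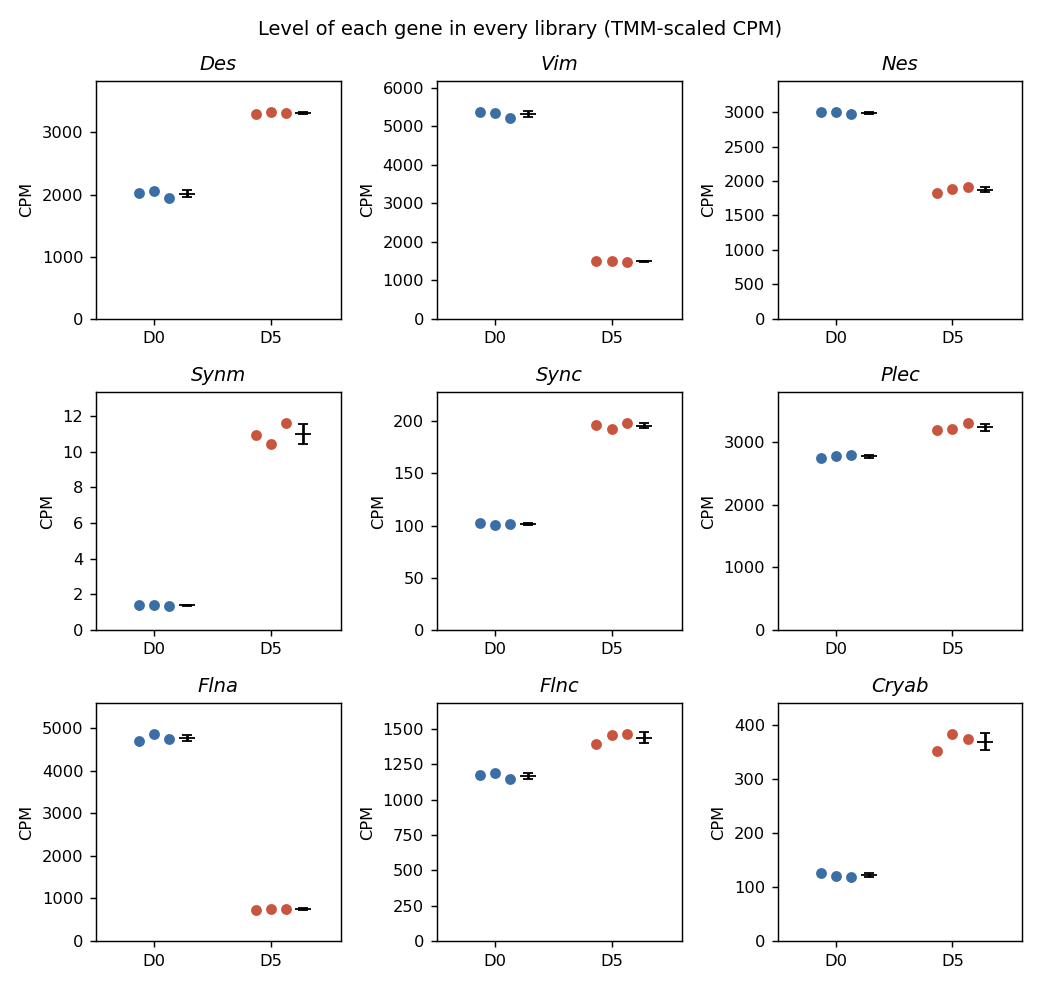
Each panel plots the level of a gene in CPM (y axis from 0, TMM-scaled) in the 3 D0 libraries (blue) and the 3 D5 libraries (red), with the mean and SD beside the points. The D0 and D5 points overlap in none of the 9 panels, and the widest separations are the fall of *Flna* from 4764 to 747.5 CPM and the rise of *Synm* from 1.37 to 11.0 CPM. With spike-in scaling *Plec* and *Flnc* had the opposite sign, without a call.

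*Des* (ENSMUSG00000026208.9, GRCm38 chromosome 1, 75360329 to 75368579, plus strand) encodes the main intermediate filament protein of mature muscle. Its level was 2032, 2054 and 1951 CPM at D0 and 3299, 3329 and 3311 CPM at D5. The groups did not overlap, and the D0 libraries already held a high level. The rise was 1.65-fold, a log2 fold change of 0.72 with a standard error of 0.033 (adjusted p = 1.23e-18, edgeR's quasi-likelihood test). With spike-in scaling it was 0.16 and was not called. Ordered from the largest rise to the largest fall, *Des* had rank 4047 of the 16290 genes tested.

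Stretches before RefSeq transcription starts of *Des*, *Flnc* and *Flna* are shown because these are the desmin and filamin genes whose levels moved in different directions. The sequences are RefSeq's for GRCm38.p6, in gene orientation. Capitals mark matches to 4 motifs searched on both strands: CANNTG (the E-box), CAGCTG (a form of the E-box favoured by myogenic factors, and so also counted as CANNTG), a MEF2-like motif (CTA and TAG with 4 bases of any kind between them) and CATTCC (the MCAT motif of TEAD factors). The *Des* window is chr1:75360042-75360291 on the plus strand, the *Flnc* window chr6:29432903-29433152 on the plus strand, and the *Flna* window chrX:74246556-74246784 on the minus strand.
Des: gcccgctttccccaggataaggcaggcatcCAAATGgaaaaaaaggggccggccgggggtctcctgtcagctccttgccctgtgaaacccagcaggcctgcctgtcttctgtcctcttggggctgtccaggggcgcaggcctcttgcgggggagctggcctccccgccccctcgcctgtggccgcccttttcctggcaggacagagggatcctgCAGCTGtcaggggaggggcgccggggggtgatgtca
Flnc: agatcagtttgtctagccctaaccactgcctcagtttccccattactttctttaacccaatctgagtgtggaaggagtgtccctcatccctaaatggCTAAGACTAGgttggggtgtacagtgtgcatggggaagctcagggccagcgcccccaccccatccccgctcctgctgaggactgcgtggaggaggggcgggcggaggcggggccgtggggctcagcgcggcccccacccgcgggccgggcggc
Flna: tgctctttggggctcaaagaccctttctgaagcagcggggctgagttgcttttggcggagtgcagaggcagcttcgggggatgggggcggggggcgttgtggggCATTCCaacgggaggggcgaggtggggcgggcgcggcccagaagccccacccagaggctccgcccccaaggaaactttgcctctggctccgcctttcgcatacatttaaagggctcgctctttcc

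The *Des* stretch held 2 matches to CANNTG, of which 1 was CAGCTG. The *Flnc* stretch, before the first of its RefSeq starts, held 1 match to the loose MEF2-like motif and none to CANNTG. That match is CTAAGACTAG, with G and C among its middle bases. A second *Flnc* window (chr6:29433006-29433255), directly before the annotated gene start, held 1 match to CATTCC and none to the other motifs. The *Flna* stretch held 1 match to CATTCC, and 21 bases of its window that lie in annotated exons are not printed. It lies within the annotated gene span, before a start downstream of the outermost one at 74249820. Among 32817 promoter windows of 250 bases, 66.2% held CANNTG, 13.0% CAGCTG, 3.20% the MEF2-like motif and 12.6% CATTCC. A match is a string of letters and not a bound site, and binding was not measured in these libraries. The windows of *Nes*, with no match to these motifs, and of *Sync*, with 1 match to CANNTG, are not printed. The windows of *Vim* and *Synm* lie wholly in annotated exons, and *Plec* and *Cryab* had no entry.

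*Vim* (ENSMUSG00000026728.9, chromosome 2, 13573927 to 13582826, plus strand) encodes the intermediate filament protein of mesenchymal cells. It was measured at 5376, 5352 and 5226 CPM at D0 and at 1490, 1496 and 1477 CPM at D5. Every D5 library was far below every D0 library. The level fell 3.58-fold, with a log2 fold change of -1.84 and a standard error of 0.034 (adjusted p = 3.85e-29, edgeR's test). Under spike-in scaling the value was -2.40, also called. Only 6.99% of the genes tested had a lower log2 fold change.

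*Nes* (ENSMUSG00000004891.16, chromosome 3, 87971078 to 87980451, plus strand) encodes nestin, a long filament protein of progenitor cells that copolymerizes with vimentin or desmin. Its D0 libraries held 3001, 2998 and 2970 CPM and its D5 libraries 1829, 1885 and 1910 CPM. The groups were apart, but the D5 level was still 62.7% of the D0 level. The log2 fold change was -0.67, with a standard error of 0.033 (adjusted p = 4.74e-18, edgeR's test), a smaller fall than that of *Vim*. With spike-in scaling it was -1.24 (adjusted p = 0.0475, edgeR's test).

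*Synm* (ENSMUSG00000030554.16, chromosome 7, 67730160 to 67759742, minus strand) encodes synemin, a large filament protein that needs desmin or vimentin to assemble. It was the scarcest of the 9, with 52, 59 and 53 counts at D0 and 275, 258 and 289 at D5. In CPM these were 1.39, 1.40 and 1.32 against 10.9, 10.5 and 11.6. The D5 libraries were all far above the D0 libraries, and the rise of 8.02-fold was the largest among the 9 genes. The log2 fold change was 3.00 with a standard error of 0.114, wider than that of the others (adjusted p = 1.00e-20, edgeR's test). Spike-in scaling gave 2.41, also called. Even at D5 its mean was 4.30 TPM, a level per length 637.5 times below that of *Des*.

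*Sync* (ENSMUSG00000001333.9, chromosome 4, 129287617 to 129308559, plus strand) encodes syncoilin, which binds desmin and the dystrobrevin of the dystrophin complex. It stood at 103, 101 and 101 CPM at D0 and at 196, 193 and 198 CPM at D5. The libraries of each stage lay within a few CPM of each other and the stages did not overlap. The rise was 1.93-fold, with a log2 fold change of 0.95 and a standard error of 0.033 (adjusted p = 7.61e-22, edgeR's test), but 0.38 and not called with spike-in scaling. Of the exonic bases of *Sync*, 27.3% overlap *Rbbp4* on the opposite strand. The strand setting of the counting is not given in the sources used here, so reads of the pair may not be told apart. *Rbbp4* itself went from 299 to 260 CPM, a log2 fold change of -0.20. The part of its reads in the counts of *Sync* was not tested.

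Per exonic length, the intermediate filament genes changed places. *Vim* had the highest level at D0, 3879 ± 32.2 TPM (SD, n = 3), followed by *Des* with 1855 ± 39.7 TPM and *Nes* with 1612 ± 18.1 TPM. At D5 *Des* led with 2738 ± 43.5 TPM, followed by *Vim* with 973 ± 20.6 TPM and *Nes* with 906.5 ± 10.7 TPM. *Des* thus made up 32.3%, 32.7% and 32.0% of the summed TPM of *Des* and *Vim* in the D0 libraries and 73.7%, 73.8% and 73.9% in the D5 libraries. The ratio of *Des* to *Vim* went from 0.478 ± 0.0067 to 2.81 ± 0.018 (SD, n = 3). The sum of both fell from 5734 ± 70.6 to 3712 ± 63.8 TPM, so the gain in *Des* was smaller than the loss of *Vim*. A ratio within a library shows unequal change of its parts and does not depend on the scaling between libraries.

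With *Nes* and *Synm* included, *Des* took 25.2% of the summed TPM at D0 and 59.2% at D5, and *Vim* took 52.8% and 21.1%. *Sync*, with 123 TPM at D0 and 212 TPM at D5, was left out of this sum. The share of *Nes* was nearly the same at the 2 stages, 22.0% ± 0.225 at D0 and 19.6% ± 0.339 at D5 (SD, n = 3), although the groups did not overlap. *Synm* contributed 0.00812% at D0 and 0.0931% at D5. The sum itself fell from 7347 ± 79.4 to 4623 ± 63.9 TPM (SD, n = 3), and *Nes* fell with it, from 1612 to 906.5 TPM. The change in shares, as opposed to levels, was mostly between *Des* and *Vim*.

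**Figure D2:**
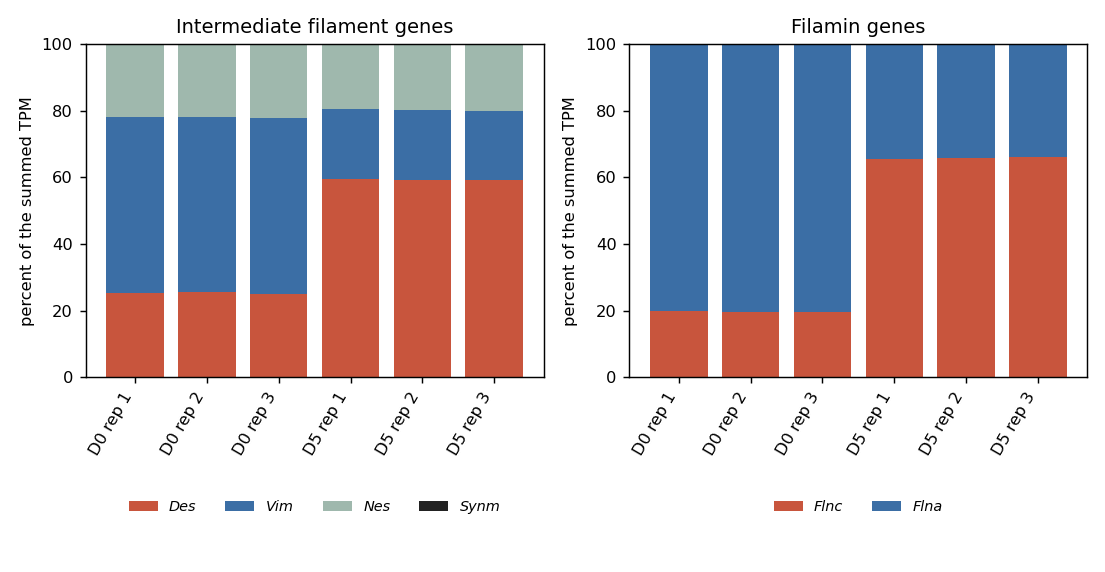
Stacked bars give the percent of the summed TPM (y axis, 0 to 100) in each of the 6 libraries for *Des*, *Vim*, *Nes* and *Synm* (left; the share of *Synm* is too thin to see) and for *Flnc* and *Flna* (right). *Des* goes from 25.2% to 59.2% on the left and *Flnc* from 19.7% to 65.8% on the right, with near-identical bars within a stage. *Sync* was left out of the sum on the left.

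*Plec* (ENSMUSG00000022565.15, chromosome 15, 76170974 to 76232574, minus strand) encodes plectin, a giant linker that connects intermediate filaments to Z-discs, the membrane and the nucleus. Its level was 2752, 2787 and 2791 CPM at D0 and 3188, 3218 and 3305 CPM at D5. The D5 libraries were all higher, by a small margin. The rise of 1.17-fold was the smallest change of the 9, with a log2 fold change of 0.22 and a standard error of 0.032 (adjusted p = 3.44e-07, edgeR's test). Under spike-in scaling the sign turned, to -0.35, and the gene was not called (adjusted p = 0.618, edgeR's test). Relative to the median of all genes the value was 0.23 there, but taking off the median largely undoes that scaling. Counts over the whole gene do not separate the many plectin isoforms, which differ in their first exons.

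*Flna* (ENSMUSG00000031328.15, chromosome X, 74223461 to 74249820, minus strand) encodes filamin A, the broadly expressed actin crosslinker. It was found at 4705, 4854 and 4735 CPM at D0 and at 732, 761 and 749 CPM at D5. No other gene of the 9 fell as far, and the libraries of each stage were close together. The level fell 6.37-fold, with a log2 fold change of -2.67 and a standard error of 0.035 (adjusted p = 7.73e-33, edgeR's test), and -3.23 with spike-in scaling, also called. Only 3.92% of the genes tested had a lower value.

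*Flnc* (ENSMUSG00000068699.12, chromosome 6, 29433256 to 29461883, plus strand) encodes filamin C, the filamin of striated muscle, which sits at Z-discs and at the membrane. The D0 libraries held 1174, 1192 and 1149 CPM and the D5 libraries 1397, 1461 and 1464 CPM. All D5 libraries lay above all D0 libraries. The rise was 1.23-fold, with a log2 fold change of 0.30 and a standard error of 0.033 (adjusted p = 1.23e-09, edgeR's test). With spike-in scaling the value was -0.26 (adjusted p = 0.714, edgeR's test). Relative to the median of all genes it was 0.31, but taking off the median largely undoes that scaling.

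Per length, the summed level of *Flna* and *Flnc* went from 2185 ± 53.0 to 722 ± 3.83 TPM (SD, n = 3). *Flnc* made up 19.97%, 19.7% and 19.5% of that sum in the D0 libraries and 65.6%, 65.8% and 66.1% in the D5 libraries. The ratio of *Flnc* to *Flna* went from 0.246 ± 0.0035 to 1.93 ± 0.024. *Flnc* thus passed *Flna* mainly as *Flna* fell, its own level going from 431.2 ± 7.83 to 475 ± 4.54 TPM. The transcripts of both genes shared none of their 50-base stretches, so reads of that length could be assigned to each.

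*Cryab* (ENSMUSG00000032060.10, chromosome 9, 50751325 to 50756636, plus strand) encodes alpha-B crystallin, a small heat shock protein abundant in heart and slow muscle. Its level was 126, 121 and 118 CPM at D0 and 352, 383 and 373 CPM at D5. The D5 libraries varied more than the D0 libraries but lay well above them. The rise was 3.04-fold, with a log2 fold change of 1.60 and a standard error of 0.036 (adjusted p = 9.13e-27, edgeR's test). With spike-in scaling it was 1.05 and lost its call (adjusted p = 0.103, edgeR's test).

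*Cryab* lies head to head with *Hspb2*, another small heat shock gene on the minus strand (50751078 to 50752354). In the annotation used their spans overlap, with the start of *Cryab* at 50751325 inside the span of *Hspb2*. *Hspb2* rose from 14.9, 12.9 and 13.2 CPM to 67.3, 75.1 and 66.3 CPM, a log2 fold change of 2.35 with a standard error of 0.057 (adjusted p = 5.85e-26, edgeR's test). Their exons overlap on opposite strands over 252 bases, which are 17.0% of *Cryab* and 30.2% of *Hspb2*, so reads there may count for either. Per length, *Cryab* was 5.02 ± 0.270 times the level of *Hspb2* at D0 and 3.00 ± 0.157 times at D5 (SD, n = 3). *Hspb1*, which encodes the widely expressed HSP27, moved the other way, and the ratio of *Cryab* to *Hspb1* went from 0.242 ± 0.0075 to 3.35 ± 0.194.

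**Figure D3:**
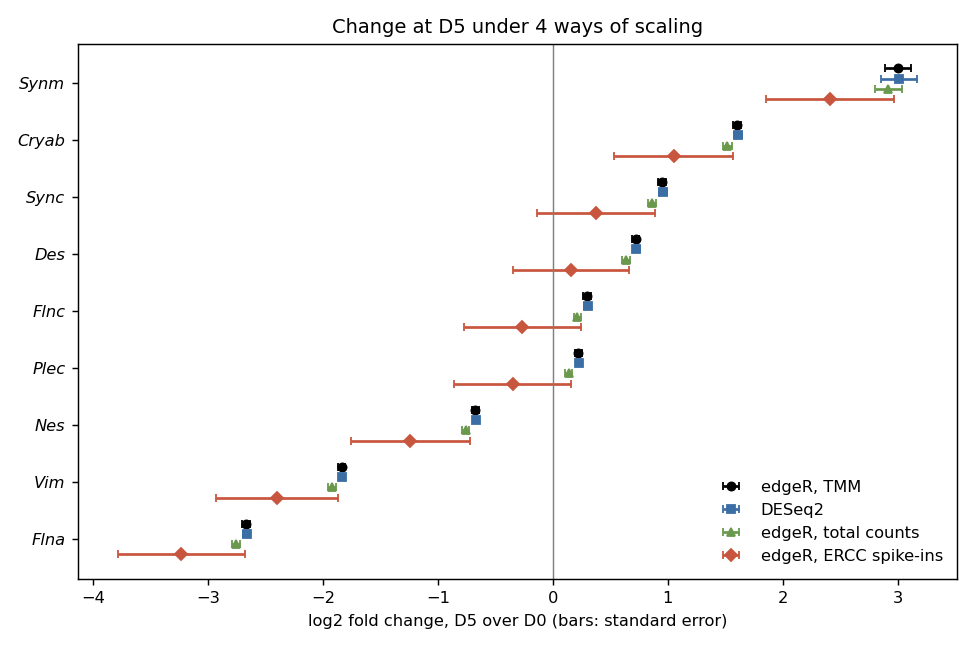
Points give the log2 fold change of D5 over D0 (x axis) with its standard error for each of the 9 genes under edgeR with TMM, DESeq2, edgeR with total counts and edgeR with ERCC spike-in scaling. The first 3 settings nearly coincide, and spike-in scaling shifts every gene to the left with wide bars, which moves *Flnc* to -0.26 and *Plec* to -0.35.

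In the order of levels per length at D0, *Vim* and *Des* were followed by *Flna* with 1754, *Nes* with 1612, *Plec* with 530.5, *Flnc* with 431.2, *Cryab* with 284, *Sync* with 123 and *Synm* with 0.597 TPM. At D5 *Des*, *Vim* and *Nes* were followed by *Cryab* with 774, *Plec* with 554.5, *Flnc* with 475, *Flna* with 246.7, *Sync* with 212 and *Synm* with 4.30 TPM. In neither order did the libraries of neighbouring genes overlap. *Flna* moved down from the third place to the seventh, and *Cryab* moved up from the seventh to the fourth. Among all genes listed, *Vim* had rank 14 and *Des* rank 44 at D0, and *Des* had rank 25 and *Vim* rank 98 at D5.

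**Figure D4:**
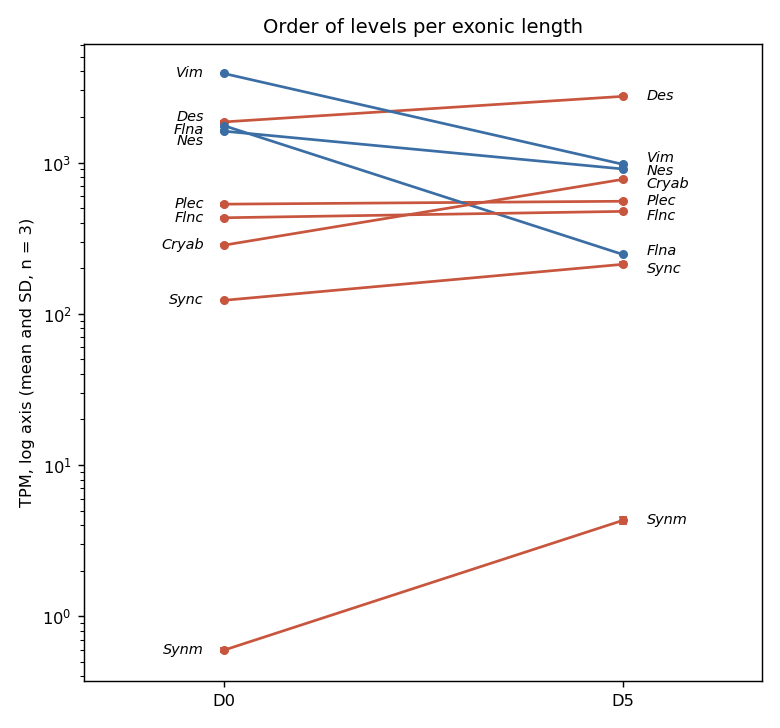
Lines join the mean level of each gene per exonic length at D0 and at D5 in TPM (y axis, log scale, with SD, n = 3). *Flna* drops from 1754 to 246.7 TPM and crosses *Nes*, *Plec*, *Flnc* and *Cryab*, and *Des* and *Vim* exchange the lead. Red lines rise and blue lines fall, where *Plec* and *Flnc* had the opposite sign with spike-in scaling.

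Genes that work with these 9 were taken from 5 lists. Among the 13 other intermediate filament genes, which include keratins and neurofilaments, 7 passed the filter, of which 2 were higher and 4 lower, against 42.2% and 40.8% of all genes tested. Their median log2 fold change was -1.51, or -0.86 without D5 replicate 2, where 8 genes passed. The neurofilament light chain *Nefl* fell from 45.5 ± 2.79 to 0.669 ± 0.093 CPM (SD, n = 3). Its log2 fold change was -6.08 (adjusted p = 9.78e-30, edgeR's test). The medium chain *Nefm* fell from 46.1 ± 1.22 to 5.39 ± 0.643 CPM, a log2 fold change of -3.10 (adjusted p = 4.49e-27, edgeR's test). Like *Vim* and *Nes*, *Nefl* and *Nefm* were thus higher in myoblasts. The 2 that rose, *Ina* and *Krt19*, stayed under 3 CPM in every library.

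Of 8 plakin and desmosome genes, the relatives and partners of *Plec*, 7 passed the filter, of which 5 were higher and 2 lower, where 42.2% and 40.8% of all genes were, with a median log2 fold change of 0.99. Periplakin (*Ppl*) rose from 0.058 ± 0.057 to 10.01 ± 1.03 CPM (SD, n = 3), from 1, 1 and 5 counts at D0. Plakoglobin (*Jup*), a linker of desmosomes and adherens junctions, rose from 74.1 ± 2.66 to 239.5 ± 7.85 CPM. The plakophilin genes *Pkp2* and *Pkp4*, which encode desmosome and junction proteins, fell by 2.35 and by 0.68 on the log2 scale. The giant plakins *Macf1* and *Dst*, chosen for naming after their values were seen, had log2 fold changes of 0.99 and 0.25, where *Dst* was negative with spike-in scaling. Desmoplakin (*Dsp*), the usual desmosomal anchor of intermediate filaments, had at most 4 counts in a library and was not tested.

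Of 15 partners of filamins, 14 passed the filter, of which 9 were higher and 5 lower, beside 42.2% and 40.8% of all genes, with a median log2 fold change of 1.42. *Myoz2*, which encodes a Z-disc protein that binds filamin C, rose from 5, 2 and 3 counts at D0 to 1580, 1732 and 1596 at D5. *Cap2*, an actin regulator, rose from 0.303 ± 0.068 to 184 ± 4.22 CPM (SD, n = 3), with a log2 fold change of 9.24 (adjusted p = 1.25e-37, edgeR's test). *Myot*, which encodes the Z-disc protein myotilin, had no count at D0 and was at least 20.8-fold higher at D5, with 3 counts per library as the limit of detection. Z-disc partners were among the largest rises, whereas *Fblim1*, which encodes a filamin binder at focal adhesions, fell by 1.32 on the log2 scale (adjusted p = 1.06e-21, edgeR's test). *Vcl* (vinculin), an actin linker of focal adhesions, fell from 1284 ± 17.1 to 586 ± 8.43 CPM, by 1.13 on that scale (adjusted p = 3.46e-24, edgeR's test). Both thus moved in the direction of *Flna*.

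All 13 partners of desmin and syncoilin passed the filter, of which 10 were higher and 3 lower, beside 42.2% and 40.8% of all genes, with a median log2 fold change of 1.26. *Neb* (nebulin), the thin filament ruler that binds desmin at the Z-disc, rose from 9.69 ± 0.809 to 4695 ± 156 CPM (SD, n = 3), with a log2 fold change of 8.92 (adjusted p = 1.79e-40, edgeR's test). *Dmd* (dystrophin), the core of the membrane complex that syncoilin binds through dystrobrevin, rose from 3, 6 and 1 counts to 837, 875 and 855. *Ank2*, an ankyrin gene, fell from 74.6 ± 3.05 to 27.0 ± 1.39 CPM, and *Dtnb* (beta-dystrobrevin) from 7.95 ± 0.311 to 5.48 ± 0.618 CPM. The last 2 had log2 fold changes of -1.47 and -0.54. The other dystrobrevin gene of the list, *Dtna* (alpha-dystrobrevin), rose from 60.8 ± 2.62 to 82.2 ± 5.42 CPM. Its log2 fold change was 0.44, but it was negative with spike-in scaling.

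The 10 small heat shock and chaperone genes all passed the filter, of which 6 were higher and 3 lower, beside 42.2% and 40.8% of all genes. *Hspa8* was not called (log2 fold change -0.05, adjusted p = 0.14, edgeR's test), but 4 were lower with total counts, without a filter, without D0 replicate 3 and without D5 replicate 1. Their median log2 fold change was 0.20, or -0.39 with spike-in scaling. *Hspb3* had at most 2 counts per library at D0 and was at least 96.8-fold higher at D5. *Hspb7*, a small heat shock gene of heart and muscle that acts on filamin C, rose from 0.705 ± 0.109 to 111.5 ± 3.93 CPM (SD, n = 3). *Hspb1* fell from 349.7 ± 2.12 to 77.0 ± 2.71 CPM and *Hspb6* from 26.5 ± 1.64 to 8.56 ± 0.937 CPM, with log2 fold changes of -2.18 and -1.63. *Hspb8* rose from 84.3 ± 2.92 to 324 ± 13.7 CPM, with a log2 fold change of 1.94. *Cryab*, *Hspb2*, *Hspb3*, *Hspb7* and *Hspb8* thus rose while *Hspb1* and *Hspb6* fell, although *Cryab* lost its call with spike-in scaling.

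Over the 5 lists, the counts with spike-in scaling were 1 higher and 4 lower for the other intermediate filament genes, 1 and 2 for the plakin list, 7 and 4 for the filamin partners, 5 and 1 for the desmin list, and 4 and 2 for the chaperones. The signs of *Krt7*, *Dst*, *Xirp1*, *Dtna*, *Utrn*, *Bag3* and *Dnajb6* turned in that setting, and those of the other genes tested in the lists did not. For genes with at most 3 counts in every library of a stage, a fitted log2 fold change is not a bound. The list medians were the same with such genes at their bound. The medians moved with the filter on low counts, which sets the genes included: without it the median of the other intermediate filament genes was 0.50, over all 13, and that of the filamin partners 2.10. With at least 10 counts in every library the medians were 0.25 for the plakin list and 0.47 for the filamin partners.

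**Figure D5:**
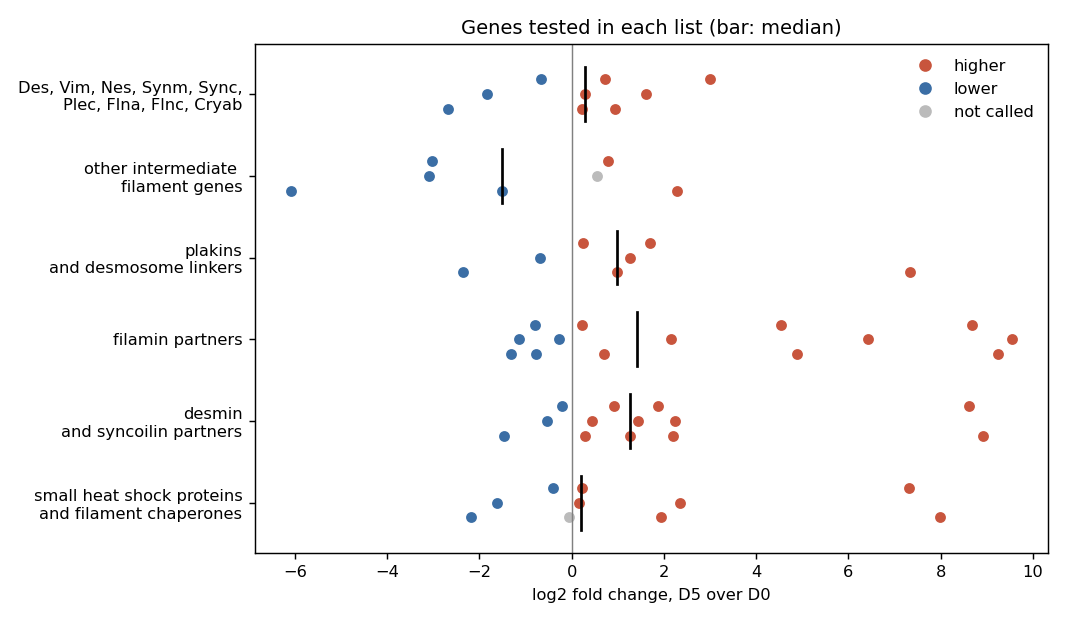
Each point is a gene that passed the filter in the 9-gene set or in 1 of the 5 lists, at its log2 fold change of D5 over D0 (x axis, edgeR with TMM), red where higher, blue where lower and grey where not called, and the bar is the median. The bar lies at -1.51 for the other intermediate filament genes and at 1.26 for the partners of desmin and syncoilin, and the bars of the 9 genes and of the chaperones lie left of 0 with spike-in scaling.

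The genes with the pattern nearest to *Des* and *Vim* were found by the Euclidean distance of log2 CPM centred on the mean over the 6 libraries, among 11886 genes. Nearest to *Des* were *Stx4a* at a distance of 0.0386, *Ndufa4* at 0.0414 and *Pex19* at 0.0449. Nearest to *Vim* were *Col4a2* at 0.0357, *Sirpa* at 0.0432 and *Ermp1* at 0.0565. With 6 libraries in 2 groups, a small distance mostly means a like difference between D0 and D5: the log2 fold change of *Stx4a* was 0.74 and that of *Col4a2* was -1.84.

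Markers of other cell types moved between the stages as well. Of the 6 fibroblast markers, *Pdgfra*, *Dcn*, *Lum* and *Dpt* were higher at D5, and the summed level of all 6 went from between 1.33 and 1.64 CPM at D0 to between 280 and 325 CPM at D5, while *Tcf21* was at 0 in every library and *Thy1* had at most 1 count. *Vim*, a filament gene that fibroblasts express, was lower in the D5 libraries that held this signal. Of the 5 smooth muscle markers, *Cnn1*, *Acta2* and *Tagln* were lower at D5, as was *Flna*. *Smtn* was not called (129, 121 and 128 CPM at D0, 130, 131 and 132 CPM at D5), and *Myh11*, which defines that cell type, stayed under 0.3 CPM in every library. The summed level of all 5 went from between 3629 and 3767 to between 1125 and 1256 CPM. The part of these genes in the results for *Vim* and *Flna* was not tested. The summed endothelial and macrophage markers stayed under 4 CPM, and those of neural progenitors and glia and of adipocytes under 1 CPM, in every library. In such bulk libraries, fewer cells of a type and less RNA per cell cannot be told apart, so a lower level of *Vim*, *Nes* or *Flna* at D5 may be either.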

How the data were processed

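Total RNA of 3 D0 and 3 D5 C2C12 samples was sequenced. The authors deposited whole-number counts per gene, without normalization. The labels name featureCounts and DESeq2 1.6.3, the build mm10 and the aligner Tophat2, whereas the paper names HISAT2, and which made these counts is not settled. Strand setting and handling of multiply mapping reads are not given in the sources used here. The 92 spike-in rows (0.720% to 2.09% of counts) and a nameless row equal to the column total were left out. Positions and exonic lengths came from GENCODE for GRCm38, which held 99.9% of the rows. Counts were filtered with filterByExpr, scaled with TMM and tested with the quasi-likelihood test of edgeR 4.0.16 (R 4.3.3), with Benjamini-Hochberg adjustment over 16290 genes. Each standard error is the size of the log2 fold change over the square root of F. Replicates differed beyond sampling noise, so each library counted once.

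The 9 genes and the lists were chosen with earlier results of these data known. Named genes were the 9, *Hspb2*, the markers, the 2 largest rises and 2 largest falls per list averaging 100 counts or more in a group, and the 3 genes nearest to *Des* and to *Vim* (pseudocount 0.5 CPM). *Ina*, *Krt19*, *Macf1*, *Dst*, *Dsp*, *Myot*, *Hspa8*, *Hspb8*, *Rbbp4* and the genes whose sign turned were named after their values were seen. An item the naming rule also held is not reported here. The fits were tested on simulated data in which few genes changed, as many up as down. That test does not cover libraries in which most genes were called, as here. Limits of 3 counts cover counting error only.

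Alternatives were DESeq2 1.42.0, upper-quartile, total-count and spike-in scaling, no filter, at least 10 counts in every library, a replicate block and each library left out.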

Additional observations from a re-analysis of the deposited data

How the results depend on the processing

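Scaling to the ERCC spike-ins was the only alternative that changed calls among the 9 genes. It called 1813 genes higher and 3747 lower, against 6869 and 6641 with TMM, and 1 of the 9 higher (*Synm*, 2.41) and 3 lower (*Vim*, -2.40; *Nes*, -1.24; *Flna*, -3.23). The values of *Plec* (-0.35) and *Flnc* (-0.26) had the opposite sign, and *Des* (0.16), *Sync* (0.38) and *Cryab* (1.05) were not called, with adjusted p from 0.103 to 0.831 in edgeR's test. In that setting the median of all genes was -0.58. Relative to it the 9 genes kept their signs, but taking off the median largely undoes that scaling and is no separate check. The cause of the shift was not tested. With the other 12 alternatives 6 of the 9 were called higher and 3 lower, with log2 fold changes from 0.63 to 0.73 for *Des*, from 0.14 to 0.24 for *Plec* and from 0.21 to 0.32 for *Flnc*. Without single libraries, 6723 to 6936 genes were higher and 6513 to 6663 lower. Without division by length, *Des* made up 27.45% of the summed CPM of *Des* and *Vim* at D0 and 69.0% at D5.

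Libraries with the same replicate number had deviations that correlated at 0.0329, 0.0645 and 0.0277 over genes, none above 0.1, so the numbers were not taken as pairs, although each library correlated best with its own number. With the replicate block, 6894 genes were higher and 6664 lower, and 6 of the 9 genes were higher and 3 lower. The 52 to 59 counts of *Synm* in the D0 libraries limit its precision.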
